A study of Mus musculus with 60 samples.

Results

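CD4 T cells recovered from the gut 6 days after an allogeneic hematopoietic cell transplantation (HCT) were compared with CD4 T cells of the spleen that the labels place before HCT, by the sequences of their T cell receptor (TCR) chains. The members were chosen by their labels: the 6 gut and 3 spleen CD4 libraries of the TCRα table and the same numbers of the TCRβ table, 18 of the 60 samples of the series. The study asked how the receptor repertoire of donor T cells changed in tissues attacked in graft-versus-host disease (GVHD). The donors were wild-type (WT), lacked STAT3 in T cells (STAT3ko) or lacked PD-1 as well (STAT3koPD-1ko). Each of the 3 genotypes gave 1 spleen library and 2 gut libraries per chain, which carry the numbers 1 and 2 in their labels.

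All day 6 libraries came from lethally irradiated WT BALB/c mice that had received T cell-depleted bone marrow of WT C57BL/6 donors, together with CD90.2+ T cells from C57BL/6 donors of 1 of the 3 genotypes. STAT3 was removed with floxed Stat3 and a Cre driven by CD4, which acts in CD4 and CD8 T cells alike, and PD-1 deficiency came from a PD-1-/- line. Lymphocytes of 3 recipients were pooled for each gut library, and the cells were sorted as H-2Kb+TCRβ+CD4+, that is, as donor-type cells. The spleen titles describe naive T cells and give only the genotype. No ages are given. The methods speak of 2 batches without tying them to the numbers, so batch and number cannot be told apart. The tables list receptor sequences and no marker genes, so the labels of tissue and cell type could not be checked with markers.

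A T cell builds each receptor chain by joining a variable (V), a joining (J) and, in the β chain, a diversity (D) segment. Bases are trimmed and added at random at the joins. The joined stretch is the third complementarity-determining region (CDR3), the loop that lies over the peptide, whereas the V segment supplies the loops that mostly contact the major histocompatibility complex (MHC). Conventional responses to peptides select single clonotypes. Superantigens bind the side of particular Vβ domains and so engage every CD4 T cell that carries such a segment, whatever its CDR3. BALB/c mice carry endogenous mammary tumor virus superantigens and the MHC class II molecule I-E, and C57BL/6 mice lack I-E. In BALB/c mice these delete cells bearing Vβ3 (TRBV26), Vβ5 (TRBV12-1 and TRBV12-2), Vβ11 (TRBV16) and Vβ12 (TRBV15) during development. C57BL/6 T cells that enter a BALB/c host have not passed through that deletion.

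The values are fractions of reads for clonotypes found in at least 2 libraries of a table, and clonotypes of a single library are not part of them. A clonotype is here 1 amino acid sequence of the CDR3: none of the 62533 TCRα and 85775 TCRβ entries repeats another's, so receptors that share it are pooled, and the V segment, J segment and nucleotides are the 1 set given for the pool. How often a pool held several V segments was not tested. The listed clonotypes held 95.8% to 99.1% of the TCRα reads in spleen, 92.5% to 94.3% in gut number 1 and 81.6% to 83.5% in gut number 2. For TCRβ these shares were 88.4% to 97.2%, 81.6% to 83.6% and 47.8% to 51.5%. About as many TCRβ reads of gut number 2 were thus outside the table as inside it. Unless stated otherwise, percentages below are of the listed reads, which makes the libraries sum to the same total. The tables state no read counts or depths, so no counting intervals were given. The smallest fraction listed by a library was 0.000267% to 0.000342% of its TCRα reads in spleen, 0.000281% to 0.000338% in gut number 1 and 0.000173% to 0.000221% in gut number 2, and for TCRβ 0.000463% to 0.000517%, 0.000493% to 0.000641% and 0.000506% to 0.000601%. Low fractions, up to 5 times that size, were all whole multiples of it within 0.05, but no counts were derived from them. P-values measure the spread between these libraries. They treat the 3 genotypes as replicates.

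The spleen libraries shared far more clonotypes with gut number 1 than with gut number 2, and the excess followed the genotype. Of the TCRβ reads of the WT, STAT3ko and STAT3koPD-1ko spleen libraries, 80.6%, 71.8% and 68.1% were in clonotypes also listed by gut number 1 of the same genotype. Gut number 1 of another genotype listed clonotypes with 21.1% to 27.2% of those reads. For gut number 2 the shares were 17.96%, 9.23% and 8.44% within the genotype and 7.90% to 18.7% across genotypes, so there the genotype made no visible difference. Read the other way, the spleen library of the same genotype listed clonotypes with a mean of 39.0% of the TCRβ reads of gut number 1 (range 28.3% to 45.0%), against 16.6% for the spleen libraries of other genotypes (12.7% to 19.3%). An exact one-sided permutation test over the 6 assignments of genotypes gave p = 0.167, the smallest it can give. For gut number 2 the means were 29.3% and 29.1%, with p = 0.5 in the same exact test. The liver libraries of number 1 gave 85.3% and 16.7%. TCRα behaved alike at a higher level, with 61.8% and 48.7% for gut number 1 and 57.2% and 57.3% for gut number 2. The labels tie no gut library to a spleen library, and the source of this sharing was not tested. Gut number 1 and gut number 2 are therefore given apart for the main results.

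**Figure D1:**
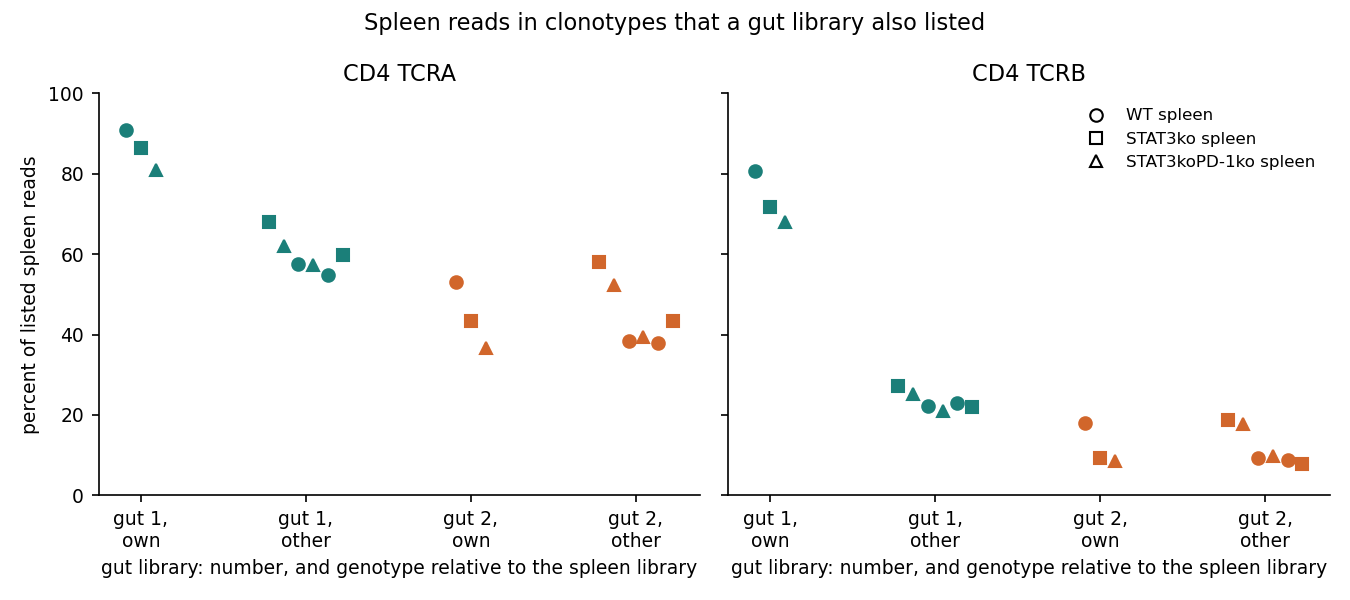
Percentage of the listed reads of each spleen library (y axis) that were in clonotypes also listed by a gut library, for TCRα and TCRβ, with gut libraries of the same genotype set apart from those of other genotypes. For TCRβ, gut number 1 of the same genotype lies at 68.1% to 80.6% and every other pair lies at 7.90% to 27.2%.

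The CDR3 sequences below are examples of the clonotypes described in the rest of the text, each a small part of its segment except the TRBV21 sequence. They are nucleotide sequences of the TCRβ table, 5′ to 3′ on the coding strand, named by their V and J segments. In the TRBV23, TRBV16 and TRBV13-1 sequences, capitals mark the bases that neither the V nor the J segment accounts for, which include D segment bases. In the TRBV26 sequences, capitals mark the part from the conserved cysteine codon on, since the table lists 21 residues (63 bases) of the V segment before it. The TRBV26 and TRBV23 sequences have the highest gut means of the segments that rose most, and TRBV26-TRBJ2-7 and both TRBV23 sequences owe theirs to 1 gut library each, the TRBV21 sequence accounts for nearly all reads of its segment, and the last pair had the highest spleen level after it.
TRBV26-TRBJ1-1: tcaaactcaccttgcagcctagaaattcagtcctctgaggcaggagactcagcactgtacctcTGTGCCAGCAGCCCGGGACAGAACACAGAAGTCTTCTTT
TRBV26-TRBJ2-1: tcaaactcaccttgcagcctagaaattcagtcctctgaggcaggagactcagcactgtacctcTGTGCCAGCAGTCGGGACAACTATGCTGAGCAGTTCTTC
TRBV26-TRBJ2-7: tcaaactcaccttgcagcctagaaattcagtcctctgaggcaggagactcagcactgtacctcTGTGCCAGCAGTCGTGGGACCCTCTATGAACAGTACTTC
TRBV23-TRBJ1-4: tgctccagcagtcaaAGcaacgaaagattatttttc
TRBV23-TRBJ2-4: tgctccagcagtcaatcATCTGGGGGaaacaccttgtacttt
TRBV21-TRBJ2-1: tatgctgagcagttcttc
TRBV13-1-TRBJ1-4: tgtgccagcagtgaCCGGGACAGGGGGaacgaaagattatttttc
TRBV16-TRBJ2-3: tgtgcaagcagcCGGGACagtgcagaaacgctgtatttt

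V segment usage of the β chain differed widely between gut and spleen. Of the 21 TRBV segments that averaged 0.5% of reads or more over the libraries, 16 (76.2%) passed limma's test at an adjusted p below 0.05, 5 of them higher and 11 lower in gut. TRBV26 and TRBV23, both on chromosome 6 (chr6:41227505-41227993 and chr6:41216073-41216526, mm10, plus strand), rose most. The levels of 14 of the 21 segments did not overlap between the 6 gut and 3 spleen libraries.

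TRBV26, the Vβ3 segment, made up 4.45%, 5.68% and 4.45% of the TCRβ reads in the WT, STAT3ko and STAT3koPD-1ko spleen libraries. In the same order it held 25.6%, 26.0% and 28.0% in gut number 1 and 25.6%, 24.8% and 22.6% in gut number 2. Every gut library lay several-fold above every spleen library. The gut number 1 libraries all lay above those of number 2, by a narrow margin, and number 2 against number 1 gave a log2 difference of -0.13 (limma adjusted p = 0.747). The mean rose from 4.86% ± 0.707 (SD, n = 3) to 25.4% ± 1.76 (n = 6), a log2 difference of 2.37 ± 0.16 (SE), or 5.17-fold, with a limma adjusted p = 7.87e-09.

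TRBV23, the Vβ20 segment, held 2.02%, 2.06% and 1.53% in spleen. It reached 9.005%, 13.7% and 11.4% in gut number 1 and 8.33%, 8.40% and 13.04% in gut number 2, again with no overlap. Its mean was 1.87% ± 0.293 (n = 3) in spleen and 10.6% ± 2.39 (n = 6) in gut, a log2 difference of 2.43 ± 0.21 (SE), or 5.38-fold, with a limma adjusted p = 7.18e-08. Together the 2 segments left 60.4% to 66.8% of the gut reads to the other segments, which had 92.3% to 94.0% in spleen.

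**Figure D2:**
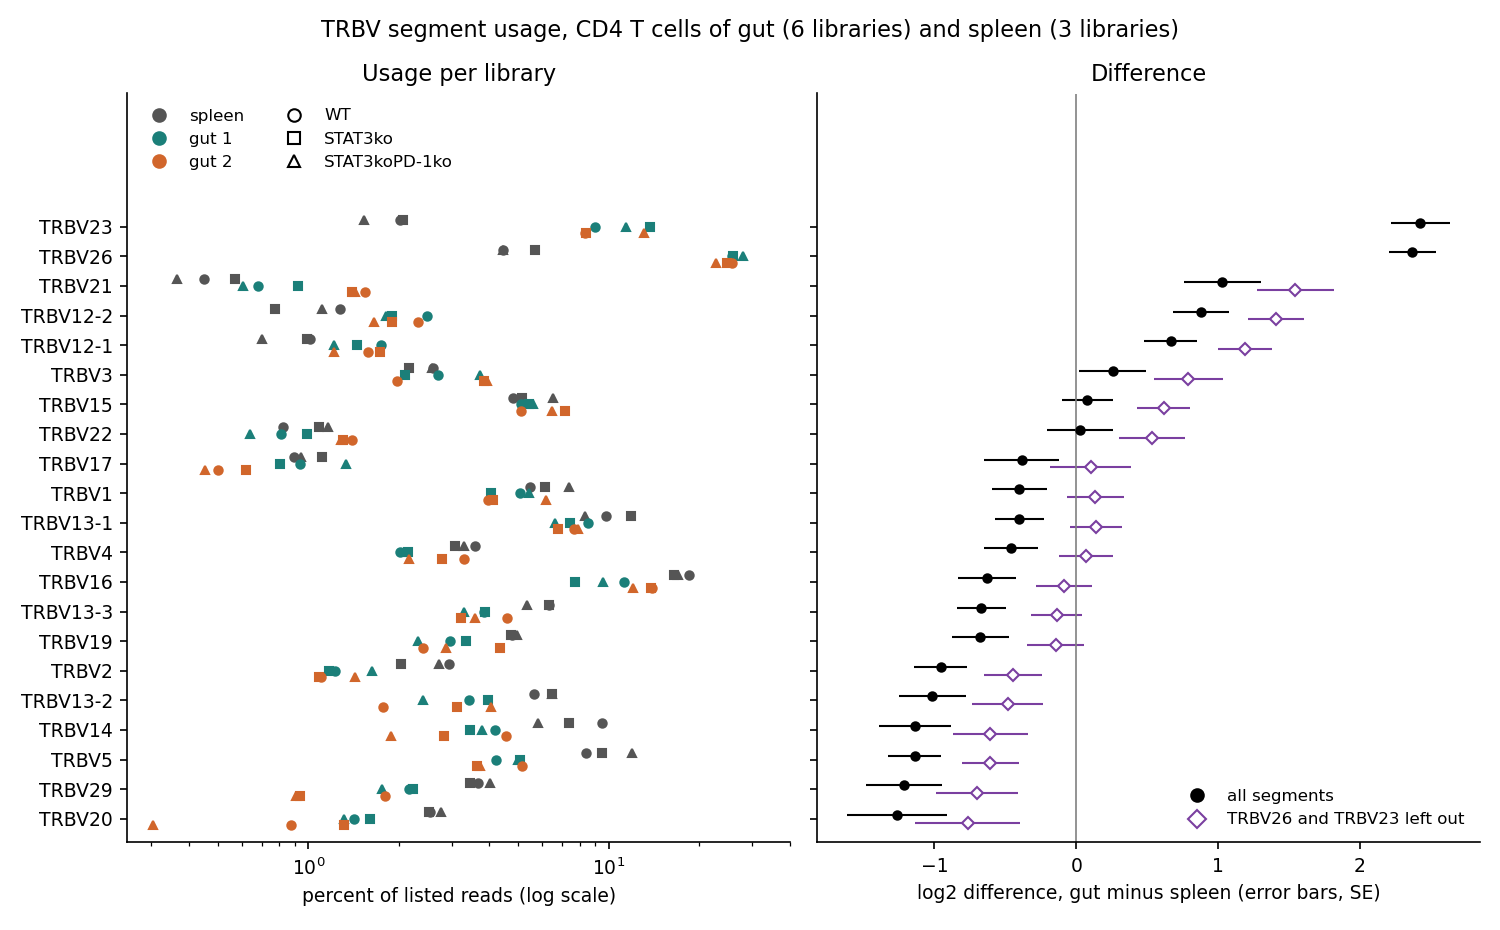
Usage of each TRBV segment in the 9 CD4 TCRβ libraries, as a percentage of listed reads on a log axis, with spleen, gut number 1 and gut number 2 marked apart. TRBV26 and TRBV23 stand at 22.6% to 28.0% and 8.33% to 13.7% in gut, against 4.45% to 5.68% and 1.53% to 2.06% in spleen. The right panel gives the log2 differences with their SE, over all segments and with both set aside.

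Among the other segments of the superantigen list, both TRBV12 segments rose, TRBV16 fell and TRBV15 did not pass. TRBV12-2 had 1.28%, 0.777% and 1.11% in spleen and 1.65% to 2.48% in gut (median 1.901%), a log2 difference of 0.88 ± 0.19 (SE; limma adjusted p = 0.00136). TRBV12-1 had 1.02%, 0.993% and 0.702% in spleen and 1.22% to 1.74% in gut (median 1.52%), a log2 difference of 0.67 ± 0.19 (SE; limma adjusted p = 0.00526). As percentages of all reads, listed or not, neither TRBV12 segment passed, with log2 differences of 0.37 (limma adjusted p = 0.259) and 0.17 (limma adjusted p = 0.543). TRBV16, the most used segment in spleen, had 18.5%, 16.5% and 16.98% there and 7.72% to 14.0% in gut (median 11.6%), a log2 difference of -0.63 ± 0.20 (SE; limma adjusted p = 0.0111), which was lost without the WT spleen library (limma adjusted p = 0.0519). Its mean was lower in gut number 1, at 9.51% ± 1.77, than in gut number 2, at 13.3% ± 1.09 (SD, n = 3 each), a difference that did not pass (limma adjusted p = 0.0976). Against spleen, TRBV16 was lower in gut number 1 (log2 -0.87, limma adjusted p = 0.000963), while gut number 2 had -0.38 and did not pass (limma adjusted p = 0.099). TRBV15 had 5.49% ± 0.918 in spleen (n = 3) and 5.80% ± 0.826 in gut (n = 6; limma adjusted p = 0.703). So 3 of the 5 listed segments were higher, 1 was lower and 1 was not distinguishable, beside a median log2 difference of -0.40 over all 21 segments. The 4 called of 5 in this list stand beside 76.2% called among all segments, and nothing particular to the list is read from them.

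The segments that fell included TRBV5 (Vβ1), TRBV2 (Vβ4), TRBV14 (Vβ13), TRBV20 (Vβ15), TRBV29 (Vβ7) and all 3 TRBV13 segments (Vβ8). TRBV5 had 8.42%, 9.46% and 11.98% in spleen and 3.64% to 5.13% in gut (median 4.59%), a log2 difference of -1.14 ± 0.19 (SE; limma adjusted p = 0.000159). TRBV14 had 9.46%, 7.36% and 5.82% in spleen and 1.88% to 4.55% in gut, with a log2 difference of -1.14 (limma adjusted p = 0.00136). The means of TRBV20, TRBV29 and TRBV2 went from 2.61% to 1.14%, from 3.71% to 1.63% and from 2.57% to 1.27% over the 6 gut libraries, with limma adjusted p of 0.00519, 0.00136 and 0.000719. The first pair differed between the gut numbers as well, with means of 1.45% in number 1 and 0.833% in number 2 for TRBV20 and of 2.05% and 1.22% for TRBV29. Within the TRBV13 family, the log2 difference was -1.01 for TRBV13-2, -0.67 for TRBV13-3 and -0.40 for TRBV13-1. Only the levels of TRBV13-1 overlapped between the tissues, and its call (limma adjusted p = 0.0463) was lost without any 1 of 8 libraries in turn and was made for neither gut number alone (limma adjusted p = 0.0952 and 0.0876).

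Percentages of a library sum to a fixed total, so a large rise of a segment lowers the others. With TRBV26 and TRBV23 set aside and the rest scaled to 100%, a setting chosen after the data were seen, 7 of 20 segments (35%) passed, 6 higher and 1 lower. Of the 11 lower calls, 10 were lost, and TRBV5 kept its own with a log2 difference of -0.61 (limma adjusted p = 0.0263). Some of the lost segments had values as large, with -0.77 for TRBV20, -0.70 for TRBV29 and -0.61 for TRBV14 (limma adjusted p = 0.0945, 0.0696 and 0.0706), and the levels of TRBV20 and TRBV29 still did not overlap between the tissues. The higher segments were TRBV21, TRBV12-2, TRBV24, TRBV12-1, TRBV3 and TRBV15, with log2 differences of 1.55, 1.41, 1.25, 1.19, 0.79 and 0.62, of which TRBV24 and TRBV3 are named because of these values. On that scale TRBV16 lay at 18.6% in spleen and 17.7% in gut (log2 -0.09, limma adjusted p = 0.726), and the median over all segments was 0.09. Signs changed for TRBV13-1, TRBV4, TRBV1 and TRBV17, to 0.14, 0.07, 0.14 and 0.10, none of which passed, and of these TRBV13-1 and TRBV4 had been called lower. TRBV4, TRBV1 and TRBV17 are named for this change. Scaled to all reads instead of listed reads, 15 of 21 segments passed, 3 higher and 12 lower, with a median of -0.93. TRBV26 and TRBV23 kept their rise there, with log2 differences of 1.83 and 1.89 (limma adjusted p = 0.000363 and 0.000532).

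TRBV21, the Vβ19 segment (chr6:41202550-41203044, mm10, plus strand), rose from 0.462% to 1.098%, with 0.738% in gut number 1 and 1.46% in gut number 2 (log2 1.03 ± 0.27 SE, limma adjusted p = 0.00394). Its rise rested on a single entry, the 18-base TRBV21-TRBJ2-1 sequence above, which lacks the codon of the conserved cysteine. All of its bases are assigned to TRBJ2-1, with 0 before the J segment, and 5183 other TRBJ2-1 entries of the table end in the same bases, so its sequence holds no base of TRBV21 alone. That sequence made up 92.3% to 99.7% of the segment's reads in all 9 libraries. As a percentage of all reads, listed or not, it stood at 0.339% to 0.473% in spleen, 0.471% to 0.760% in gut number 1 and 0.680% to 0.736% in gut number 2.

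TRBV26 and TRBV23 were compared further by how many clonotypes carried them. TRBV26 was found in 1812, 2354 and 1411 clonotypes of the WT, STAT3ko and STAT3koPD-1ko spleen libraries, which was 12.9%, 16.5% and 15.5% of the clonotypes listed. In gut number 1 the numbers were 8234, 6098 and 6015, or 27.6%, 28.5% and 28.3%, and in gut number 2 they were 2724, 968 and 784, or 30.6%, 24.4% and 22.9%. The segment was thus carried by a larger part of the listed clonotypes in every gut library. Nearly all TRBV26 entries include residues of that segment before the cysteine, so they were not pooled with receptors of other segments. The part of this in the clonotype shares was not tested. TRBV23 was carried by 4.06% to 5.17% of the clonotypes in spleen, 7.51% to 8.14% in gut number 1 and 4.60% to 5.18% in gut number 2. When each listed clonotype was counted once, whatever its reads, 11 of 21 segments passed and TRBV26 was the only higher one, with a log2 difference of 0.85 (limma adjusted p = 0.000221). TRBV23 then had 0.44 (limma adjusted p = 0.0728).

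No single clonotype held much of TRBV26. The largest TRBV26 clonotype made up 2.70% to 3.36% of the segment's reads in spleen, 0.299% to 2.39% in gut number 1 and 0.690% to 2.11% in gut number 2. The effective number of TRBV26 clonotypes, the exponential of the Shannon entropy, was 620 to 938 in spleen, 2680 to 4788 in gut number 1 and 360 to 1592 in gut number 2. These numbers grow with the number of clonotypes listed, which was smallest in gut number 2. For TRBV23 the largest clonotype held 4.38% to 14.4% of the segment in spleen, 0.931% to 1.53% in gut number 1 and 2.65% to 6.76% in gut number 2.

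**Figure D3:**
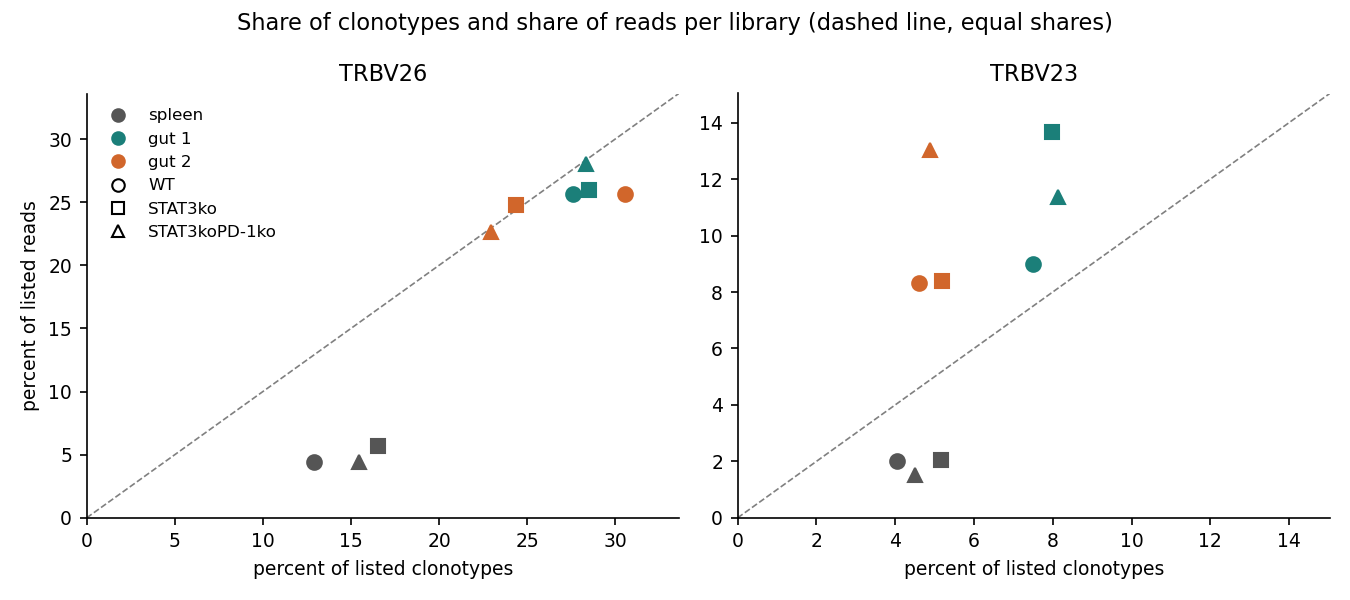
TRBV26 and TRBV23 in each CD4 TCRβ library, as a percentage of listed clonotypes (x axis) against a percentage of listed reads (y axis), with a dashed line at equal shares. TRBV26 is higher in gut on both measures (22.6% to 28.0% of reads, 22.9% to 30.6% of clonotypes), while TRBV23 in gut number 2 (4.60% to 5.18% of clonotypes) lies at the level of spleen by clonotypes (4.06% to 5.17%).

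Single TRBV26 and TRBV23 clonotypes differed in how widely they were found. The TRBV26-TRBJ1-1 sequence above was listed in all 9 libraries, with 0.00825%, 0.00582% and 0.0143% in spleen and 0.0363% to 0.348% in gut, with no overlap. TRBV26-TRBJ2-1 was listed by all 6 gut libraries at 0.0185% to 0.244% and by 2 spleen libraries at 0.00318% and 0.000953%. TRBV26-TRBJ2-7 was found in gut in the STAT3koPD-1ko library of number 1 alone, where it held 0.671%. The 3 leading TRBV23 clonotypes reached 0.847%, 0.840% and 0.796% in gut number 2 of STAT3koPD-1ko, were listed by 1 other gut library each at 0.00120% or less, and by no spleen library. A mean over libraries of such a clonotype stands for 1 library.

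CD8 T cells of the same sorts used both segments little. In the CD8 libraries TRBV26 held 1.02% ± 0.287 in spleen (n = 3) and 1.40% ± 0.407 in gut (n = 6), and TRBV23 held 0.251% ± 0.0797 and 0.312% ± 0.189. These values come from other tables and were not tested against the CD4 ones. Clonotypes shared with the CD8 library of the same label held 1.98% to 4.93% of the CD4 TCRβ reads in spleen and 4.98% to 9.86% in gut. For TCRα the ranges were 5.64% to 7.80% and 9.27% to 11.7%. The part of this overlap in the V segment differences was not tested.

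J segment usage of the β chain differed less. Of 12 TRBJ segments, 4 (33.3%) passed, TRBJ1-1 and TRBJ1-3 higher and TRBJ1-5 and TRBJ2-5 lower in gut. The levels of these 4, and of no other TRBJ segment, did not overlap between the tissues. TRBJ1-1 had 9.83%, 11.03% and 10.6% in spleen and 11.8% to 15.2% in gut (median 13.3%; log2 0.34 ± 0.09 SE, limma adjusted p = 0.00561). TRBJ1-3 went from a mean of 5.77% to 7.71% (log2 0.41 ± 0.09 SE, limma adjusted p = 0.00316). TRBJ1-5 went from 2.25% to 1.29% (log2 -0.76 ± 0.17 SE, limma adjusted p = 0.00316), and TRBJ2-5 from 13.6% to 10.98% (log2 -0.31 ± 0.08 SE, limma adjusted p = 0.00561). Both TRBJ1 rises were lost when percentages of all reads were used, where the median over the 12 segments was -0.53.

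The calls among J segments were lost when TRBV26 and TRBV23 were both set aside, while the differences kept their signs at a smaller size. Limma then called 0 of 12 TRBJ segments (0%), with 2 at an unadjusted p under 0.05. The log2 differences were 0.25 for TRBJ1-1, 0.32 for TRBJ1-3, -0.54 for TRBJ1-5 and -0.17 for TRBJ2-5 (limma adjusted p = 0.215, 0.159, 0.170 and 0.215). TRBV26 reads carried TRBJ1 segments at 36.3% to 39.1% in spleen and 43.5% to 46.7% in gut, and TRBJ1-1 at 9.94% to 10.2% and 13.5% to 16.6%. In segments other than TRBV26 and TRBV23, TRBJ1 segments held 31.6% to 33.7% in spleen and 33.6% to 35.4% in gut. TRBD1 was assigned to 37.3% of the TRBV26 reads with a D segment in spleen and 36.6% in gut. Over all V segments its share went from 64.8%, 62.8% and 61.6% in spleen to 53.4% to 56.1% in gut. The difference of -8.08 percentage points over all segments was -0.55 points without TRBV26 and TRBV23.

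The α chain differed far less than the β chain. Of 48 TRAV segments, 2 (4.17%) passed limma's test, both lower in gut, and 14 had an unadjusted p under 0.05. TRAV17 had 1.08%, 0.964% and 1.20% in spleen and 0.473% to 0.859% in gut (median 0.613%), a log2 difference of -0.71 ± 0.18 (SE; limma adjusted p = 0.0455). TRAV8D-1 had 4.86%, 3.32% and 4.35% in spleen and 1.53% to 3.07% in gut (median 2.69%), a log2 difference of -0.82 ± 0.22 (SE; limma adjusted p = 0.0485). Of the 48 TRAV segments, 9 did not overlap between the tissues, TRAV17 and TRAV8D-1 among them. Against spleen, gut number 1 had -0.58 for TRAV17 and -0.60 for TRAV8D-1 and passed for neither (limma adjusted p = 0.304 and 0.317). Gut number 2 had -0.84 and -1.04 (limma adjusted p = 0.00701 each), and the difference between the gut numbers passed in neither (limma adjusted p = 0.581 and 0.309). Both calls were near the threshold: without the WT, STAT3ko or STAT3koPD-1ko spleen library, without STAT3ko gut number 1 or without STAT3koPD-1ko gut number 2, neither passed, and TRAV8D-1 was also lost without STAT3ko gut number 2. TRAV8D-1 has a near copy, TRAV8-1, between which reads may be split, and with copies merged the segment missed the threshold (limma adjusted p = 0.0533). TRAV16N, next in order, had 3.57% in spleen and 2.33% in gut and did not pass (limma adjusted p = 0.0559).

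No TRAJ segment passed. Limma called 0 of 40 (0%), with 5 at an unadjusted p under 0.05. TRAJ45, TRAJ7 and TRAJ30, those with the lowest p, had log2 differences of -0.43, 0.52 and -0.33 (limma adjusted p = 0.227 each), and the levels of each overlapped between gut and spleen. The invariant α chain of natural killer T cells, TRAV11 joined to TRAJ18, held 0.000539% to 0.02997% of the spleen reads and 0% to 0.0488% of the gut reads. That of mucosal-associated invariant T cells, TRAV1 joined to TRAJ33, held at most 0.00558% in any of the libraries.

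The gut numbers were also compared with spleen apart. For TRBV, gut number 1 gave 15 calls (71.4%) and gut number 2 gave 14 (66.7%), with 13 called for both in the same direction. For TRBJ, number 1 gave 6 (50%) and number 2 gave 5 (41.7%), 4 of them for both. For TRAV, limma called 0 of 48 for gut number 1, with 6 at an unadjusted p under 0.05, and 10 (20.8%) for gut number 2, 2 higher and 8 lower. For TRAJ it called 0 for either number, with 1 and 6 at an unadjusted p under 0.05. The contrasts share the 3 spleen libraries. Gut number 2 was then set against gut number 1 directly, where 5 TRBV segments (23.8%) passed. TRBV21 and TRBV22 were higher in number 2, with log2 differences of 0.91 and 0.66 (limma adjusted p = 0.0037 and 0.0178). TRBV17, TRBV20 and TRBV29 were lower, with -0.83, -0.91 and -0.77 (limma adjusted p = 0.00616, 0.0111 and 0.0111). Of the TRAV segments 2 (4.17%) passed, TRAV9-2 and TRAV5-1, with -1.10 and -0.98. Among the J segments, still as percentages of listed reads, limma called 0 of 12 TRBJ segments (0%), with 4 at an unadjusted p under 0.05, and 0 of 40 TRAJ segments, with 0 unadjusted. As percentages of all reads, a scale chosen after the data were seen, 16 TRBV segments (76.2%) were lower and 0 higher in number 2, with a median log2 difference of -0.76. TRBV21 and TRBV22 then had 0.22 and -0.01 (limma adjusted p = 0.277 and 0.941), and TRBV17, TRBV20 and TRBV29 stayed lower. All 12 TRBJ segments (100%) were lower on that scale, with a median of -0.74. Of 43 TRAV segments 6 (14%) were lower, TRAV5-1 among them. Apart from TRBV21, TRBV20 and TRBV29, these segments are named because so few passed.

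The abundance curves of gut number 1 lay below those of spleen over the middle ranks, and the place of gut number 2 depended on the scale. At rank 100 a TCRβ clonotype held 0.107%, 0.0923% and 0.119% of all reads in spleen, 0.0360%, 0.0385% and 0.0562% in gut number 1 and 0.0369%, 0.0697% and 0.0899% in gut number 2, so every gut library lay lower. At rank 1000 the values were 0.0183% to 0.0236% of all reads in spleen and 0.0107% to 0.0141% in gut, also without overlap. These values take in the lower listed share of gut. Divided by it, a scale chosen after the data were seen, rank 100 of TCRβ held 0.104% to 0.122% of the listed reads in spleen, 0.0431% to 0.0689% in gut number 1 and 0.0772%, 0.142% and 0.174% in gut number 2. Gut number 1 thus stayed below spleen, and 2 of the 3 gut number 2 libraries were above it. At rank 1000 the listed values were 0.0207% to 0.0243% in spleen, 0.0138% to 0.0170% in gut number 1 and 0.0208% to 0.0269% in gut number 2, which overlapped spleen. At rank 1 the tissues overlapped, with 0.556% to 0.696% of all reads in spleen and 0.535% to 0.760% in gut, and in 5 of the 6 gut libraries that entry was the TRBV21-TRBJ2-1 sequence. In TCRα, rank 10 held 0.309%, 0.310% and 0.313% of all reads in spleen, 0.134% to 0.186% in gut number 1 and 0.191% to 0.260% in gut number 2. Of the listed reads these ranges were 0.315% to 0.323%, 0.142% to 0.201% and 0.234% to 0.312%, still without overlap. As shares of the listed reads, the 100 most abundant TCRα clonotypes held 19.2% to 20.5% in spleen and 9.63% to 19.1% in gut. In TCRβ they held 18.8% to 20.3% in spleen, 7.80% to 15.3% in gut number 1 and 13.5% to 33.5% in gut number 2, so that the gut numbers lay mostly on either side of spleen. Gut number 2 of STAT3ko and STAT3koPD-1ko had the most concentrated lists, with 346 and 237 clonotypes making up 50% of the listed TCRβ reads, against 548 to 686 in spleen and 2173 to 3530 in gut number 1.

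**Figure D4:**
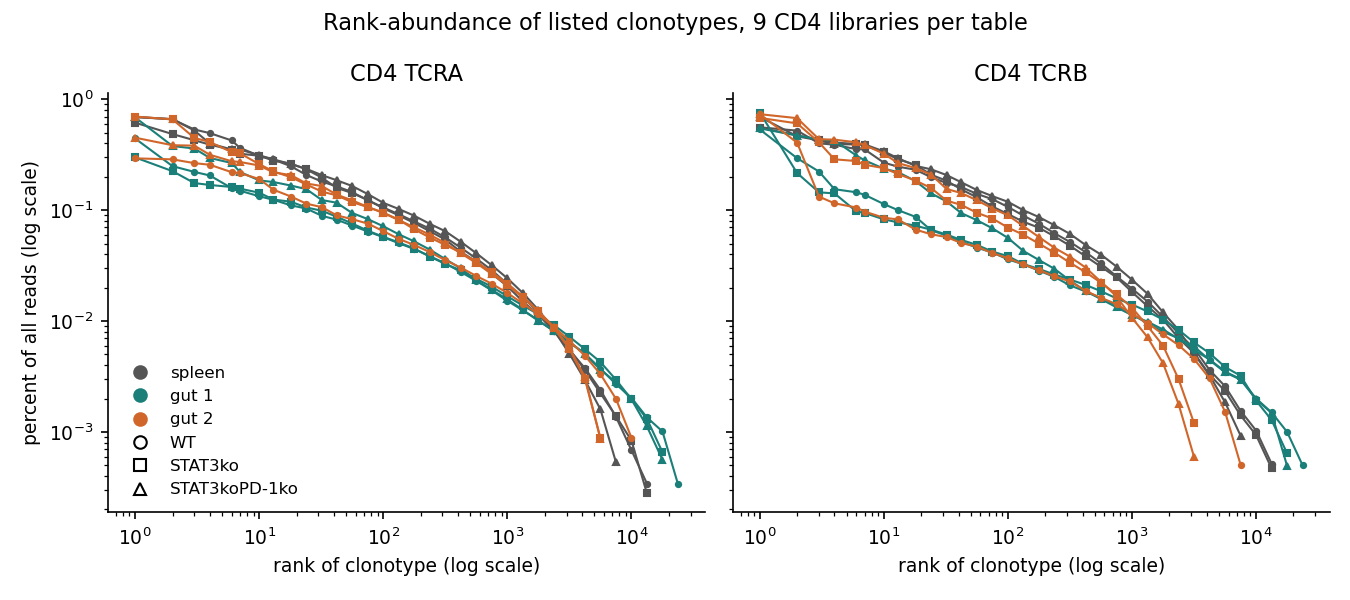
Percentage of all reads held by the clonotype of each rank, on log axes, in the 9 TCRα and the 9 TCRβ libraries. At rank 100 of TCRβ the spleen curves lie at 0.0923% to 0.119% and the gut curves at 0.0360% to 0.0899%, whereas at rank 1 they overlap. The gut curves carry the lower listed share of those libraries.

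The diversity of the listed TCRβ clonotypes depended on the gut number. The effective number of clonotypes was 3916, 3845 and 2796 in spleen, 14626, 10930 and 8594 in gut number 1 and 4320, 1531 and 1139 in gut number 2. Gut number 1 was thus above spleen for each genotype, and gut number 2 was below it for STAT3ko and STAT3koPD-1ko. Over the 6 gut libraries the log2 difference from spleen was 0.42 (exact permutation test, two-sided, p = 0.643). For TCRα it was 0.77 (exact permutation test, two-sided, p = 0.179). The listed share differs between the gut numbers and leaves out a different part of each list, and its part in these values was not tested.

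The leading spleen clonotypes were a small part of the gut. The top 100 TCRβ clonotypes of the WT, STAT3ko and STAT3koPD-1ko spleen libraries held 18.8%, 19.9% and 20.3% there. In gut number 1 of the same genotype, 93, 86 and 74 of the 100 were listed and held 1.74%, 1.86% and 1.21%. In gut number 2, 20, 13 and 9 were listed and held 2.85%, 2.00% and 2.08%, most of it the TRBV21-TRBJ2-1 sequence, which had 1.54%, 1.39% and 1.43%. In the opposite direction, 71, 56 and 15 of the 100 leading clonotypes of gut number 1 were listed in spleen, where they held 1.99%, 1.55% and 0.567%. For TCRα, the top 100 of spleen held 2.32% to 4.13% of gut number 1 and 2.52% to 4.25% of gut number 2.

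After TRBV21-TRBJ2-1, the TCRβ clonotypes with the highest spleen means were low in gut. TRBV13-1-TRBJ1-4 held 0.716% in the STAT3koPD-1ko spleen library, was not listed by the other spleen libraries, and had 0.00605% in gut number 1 of STAT3koPD-1ko and 0% in the other gut libraries. TRBV16-TRBJ2-3 was listed by all 9 libraries, at 0.151%, 0.0546% and 0.439% in spleen and 0.00242% to 0.0335% in gut. TRBV21-TRBJ2-1 also had the highest gut mean, at 1.08%. Next came TRBV16-TRBJ2-2, with 0.833% and 0.470% in gut number 2 of STAT3ko and STAT3koPD-1ko and at most 0.0255% in any other library compared, and TRBV13-2-TRBJ1-1, with 1.31% in gut number 2 of STAT3koPD-1ko and at most 0.0355% in the other 8 libraries compared.

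The leading TCRα clonotypes are shown because they had the highest gut or spleen means, and all 9 libraries listed each of them. None has more than 1 base, in capitals, beyond its V and J segments.
TRAV14N-3-TRAJ7: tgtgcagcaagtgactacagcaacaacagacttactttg
TRAV14N-3-TRAJ13: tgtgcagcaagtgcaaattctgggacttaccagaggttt
TRAV7D-4-TRAJ15: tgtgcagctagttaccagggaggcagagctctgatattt
TRAV10-TRAJ22: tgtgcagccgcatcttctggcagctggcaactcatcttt
TRAV7-4-TRAJ27: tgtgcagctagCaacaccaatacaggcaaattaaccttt
TRAV14N-3-TRAJ7, the highest gut mean, had 0.0874%, 0.0631% and 0.0615% in spleen and 0.227% to 0.470% in gut, with no overlap. TRAV14N-3-TRAJ13 had 0.211%, 0.323% and 0.0687% in spleen and 0.182% to 0.789% in gut, and TRAV7D-4-TRAJ15 had 0.544%, 0.293% and 0.0623% in spleen and 0.155% to 0.493% in gut, so both overlapped. TRAV10-TRAJ22, the highest spleen mean, had 0.315%, 0.507% and 0.361% in spleen and 0.129% to 0.245% in gut, with no overlap. TRAV7-4-TRAJ27 had 0.164%, 0.106% and 0.695% in spleen and 0.101% to 0.288% in gut, with overlap. These clonotypes were picked by their values, and no test was made of them.

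CDR3 properties were computed over clonotypes whose CDR3 runs from cysteine to phenylalanine, tryptophan or leucine. That form held 93.7% to 95.1% of the TCRβ reads in spleen and 71.2% to 75.5% in gut, because 17805 of 17815 TRBV26 clonotypes are listed with the residues before their cysteine. Shares and means of CDR3 below are over the reads of that form, so in TCRβ they leave out TRBV26 unless it is said to be trimmed to its cysteine. Over 44 features of both chains, rank-abundance included, exact two-sided permutation tests over the 84 arrangements of the 9 libraries called 0 (0%) after Benjamini-Hochberg adjustment. Of them 13 had an unadjusted p under 0.05 and 13 did not overlap between gut and spleen, 7 in TCRα and 6 in TCRβ. With rank values taken of the listed reads, 0 were called, and 10 had an unadjusted p under 0.05 and 10 did not overlap, 6 in TCRα and 4 in TCRβ. The smallest p the design allows is 0.0119, which 6 features reached, and 11 would have had to reach it for any to pass.

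In TCRα, all 6 gut libraries had a higher mean net charge and a lower central hydropathy than the 3 spleen libraries, without passing the adjustment. The mean net charge was 0.736, 0.754 and 0.692 per CDR3 in spleen, 0.794, 0.801 and 0.789 in gut number 1 and 0.796, 0.803 and 0.850 in gut number 2 (exact permutation p = 0.0119, adjusted p = 0.0873). The mean hydropathy of the residues left after dropping 4 at each end was -1.28 ± 0.0197 in spleen, -1.32 ± 0.0103 in gut number 1 and -1.36 ± 0.0299 in gut number 2, and the gut libraries lay below those of spleen with the same exact p. Hydrophobic residues at both positions 6 and 7, a feature linked in other work to self-reactive receptors, were found in 0.826%, 0.867% and 0.673% of the TCRα reads in spleen, 0.445% to 0.611% in gut number 1 and 0.183% to 0.313% in gut number 2. For TCRβ that share was 0.582% to 1.26% in spleen and 0.207% to 0.789% in gut, with overlap (exact permutation p = 0.25). The TCRβ net charge was -0.763 to -0.712 in spleen and -0.720 to -0.605 in gut, with overlap (exact permutation p = 0.0714). With TRBV26 counted from its cysteine it was -0.739 to -0.697 in spleen and -0.654 to -0.553 in gut. These did not overlap (exact permutation p = 0.0119, adjusted p = 0.0748), in a setting chosen after the data were seen. TCRβ hydropathy overlapped in both settings (exact permutation p = 0.0357 and 0.429).

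Gut number 2 had the shortest TCRβ loops, and where gut number 1 stood in the share of long loops depended on whether TRBV26 was counted. Without TRBV26, the mean TCRβ length per library was 13.7 residues in spleen, 13.7 to 13.8 in gut number 1 and 13.5 to 13.6 in gut number 2. CDR3 of at least 16 residues then held 7.47% ± 0.410 of the reads in spleen, 7.11% ± 0.689 in gut number 1 and 2.92% ± 1.01 in gut number 2 (SD, n = 3 each). With TRBV26 counted from its cysteine, a setting chosen after the data were seen, they held 6.99%, 6.97% and 7.69% in spleen, 5.52%, 6.17% and 6.37% in gut number 1 and 1.85%, 2.19% and 3.41% in gut number 2, so that every gut library lay below every spleen library (exact permutation p = 0.0357, adjusted p = 0.112). The mean length in that setting overlapped between spleen (13.6805 to 13.7374 residues) and gut number 1 (13.681 to 13.7015), with 13.4265 to 13.5272 in gut number 2. Bases assigned to no segment, which could not be counted for most TRBV26 clonotypes, averaged 2.87 ± 0.0769, 2.82 ± 0.00925 and 2.21 ± 0.110 per clonotype read in TCRβ, and 2.01 ± 0.102, 1.95 ± 0.0128 and 1.65 ± 0.0488 in TCRα. Over all 6 gut libraries, long CDR3 without TRBV26 and unassigned bases in TCRβ overlapped with spleen (exact permutation p = 0.155 and 0.119), and 3 libraries against 3 cannot go below p = 0.1 in such an exact test. The number 2 libraries are also those with the lowest listed share, and its part in the length difference was not tested.

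**Figure D5:**
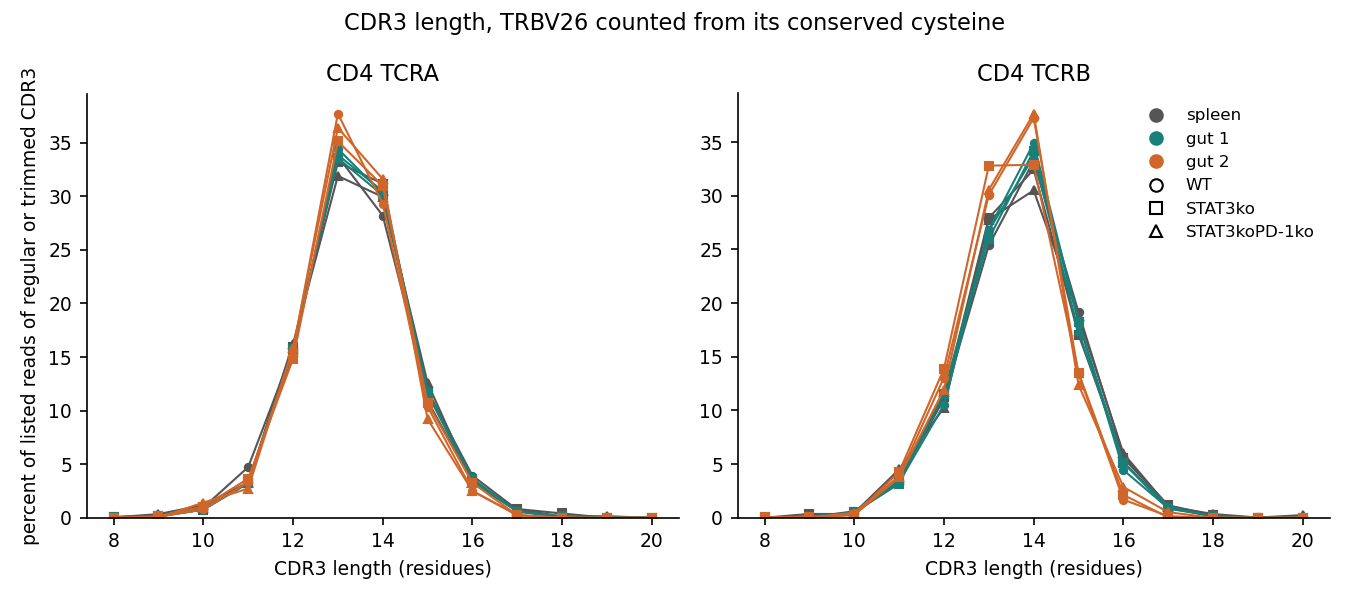
CDR3 length in residues (x axis) against the percentage of listed reads (y axis), 1 line per CD4 library, for TCRα and TCRβ, over CDR3 that run from a cysteine, with TRBV26 counted from its own. In TCRβ, gut number 2 has a mean of 31.1% at 13 residues and 13.1% at 15, against 27.03% and 18.3% in spleen and 26.5% and 17.97% in gut number 1.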

How the data were processed

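CDR3 libraries were made from RNA of sorted cells with the SMARTer mouse TCR a/b kit. MiXCR called clonotypes and VDJtools joined the libraries of a chain and cell type, and the labels name the build mm10. The deposited values used here are each a fraction of all reads of a library held by a clonotype, as the authors formed them before the join. Columns for 15 libraries per table were at hand, while the join counted up to 18. The pooled frequency columns of the join were not used, and the number of joined libraries with a clonotype served as a filter only.

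Fractions were summed per V and J segment, divided by the listed share and tested as log2(percent + 0.1) with limma 3.58.1 (R 4.3.3) over segments averaging at least 0.5%, with Benjamini-Hochberg adjustment within a table. The pseudocount makes fold changes of low segments too small. Single values per library were tested by exact two-sided permutation (Python 3.11.15). The limma fit of gut against spleen and the two-sided exact permutation over all arrangements were tried on simulated data. The fits with the gut numbers apart or with genotype as a covariate were not, nor were the permutations of genotypes or within genotype. The tables state no read counts or depth, none were derived from the fractions, and no intervals were formed. Coordinates are those of the GENCODE annotation of mm10.

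Named segments are up to 8 that passed per table, by size of change, or the 3 with the lowest p where fewer than 3 passed, plus fixed lists: superantigen-reactive Vβ, TRBV13, TRBV23, TRBV5, TRBV2 and invariant α chains. Named clonotypes had the 3 highest means. Members and lists were chosen with earlier results of these data known. Alternatives varied the pseudocount, filter, scaling, weighting, clonotype form, covariate and libraries.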

Additional observations from a re-analysis of the deposited data

Results flagged for a closer look

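In each of 2 TCRα features, 1 of the 6 gut libraries stood apart from the other 5, a different library each time, by Dixon's ratio of the gap to the range of the group. In mean net charge of the CDR3, STAT3koPD-1ko gut number 2 had 0.8496, with a ratio of 0.768, while the other gut libraries had 0.789 to 0.803. In the percentage of glycine among the central residues, STAT3koPD-1ko gut number 1 had 22.88, with a ratio of 0.632, while the others had 21.7 to 22.2. Of 71 groups of values examined, 2 were past the critical value, and chance alone gives about 1 in 20.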

How the results depend on the processing

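By replicate number no paired analysis was possible because spleen and gut share fewer than 2 numbers. Blocking by genotype was possible. With genotype as a covariate, limma called 17 TRBV (5 higher, 12 lower), 4 TRBJ, 2 TRAV and 0 TRAJ segments. Exact permutation within genotype, over 27 arrangements, called 0 of the CDR3 and rank features and gave p = 0.222 for the TCRα and 0.630 for the TCRβ effective number. The smallest p that this exact permutation test within genotype can give is p = 0.037. Most of the 44 features would have had to reach it for any to pass the adjustment. Its 0 calls were thus largely set by the design, and nothing is read from them. The 2 TRAV calls, both lower, became 8 with a pseudocount of 1, of which 3 were higher, 0 with 0.01, 0 without the filter, 6 on the scale of all reads, 0 over unweighted clonotypes, 4 with all 15 libraries fitted and 1 with copies merged, and 0 to 4 when a library was left out. TRAJ calls went from 0 to 1 without the WT spleen library and stayed at 0 otherwise. TRBV calls were 13 to 15 with a library left out, 7 without TRBV26 and TRBV23, and over regular CDR3, which leaves out TRBV26, 11 of 20 with 5 higher and 6 lower in place of 11 lower. TRBJ calls were 2 on the scale of all reads, 3 over unweighted clonotypes, 0 over regular CDR3, 0 without TRBV26 and TRBV23, and 4 with any library left out. Over unweighted clonotypes TRBJ1-3 and TRBJ1-5 lost their calls (limma adjusted p = 0.0525 and 0.152) and TRBJ2-7 was called lower (limma adjusted p = 0.0380). The settings without TRBV26 and TRBV23, with merged copies, with TRBV26 trimmed and with rank values of listed reads were chosen after the data were seen.

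Reversals among the named segments were TRBV15 (-0.45 on all reads, and -0.0098 to 0.21 with a library left out), TRBV13-1, TRBV4, TRBV1 and TRBV17 (0.14, 0.07, 0.14 and 0.10 without TRBV26 and TRBV23), TRBJ1-3 (-0.12 on all reads) and TRBJ1-1 (-0.19 on all reads). The scale of all reads lowers every gut value by the listed share. The number of listed TCRβ clonotypes went the other way from the Shannon effective number, with a log2 difference of -0.17 (exact permutation p = 0.821), and leaving out a library moved the latter from 0.09 to 0.83. Over all listed CDR3, with TRBV26 untrimmed, 11 features passed in place of 0, and in TCRβ the gut minus spleen difference became 4.19 residues for length, 17.4 percentage points for long CDR3, -0.51 for charge and 0.21 for hydropathy. These follow from the residues listed before the TRBV26 cysteine. The share of short TCRβ CDR3 became 0.0109 unweighted, 0.0537 without TRBV23 and 0.0532 without TRBV26 and TRBV23, with -0.43 to 0.0194 when a library was left out, and hydropathy became 0.0039 without TRBV23 or without both. The cause was not tested. Of 472 alternatives for segments named by the fixed rule, which TRBV4, TRBV1 and TRBV17 are not, 406 kept direction and side of the threshold, 54 lost and 7 gained a call, and 5 reversed. Of 242 for features, 228 kept both, 4 gained a call and 10 reversed. No feature was called in the main setting, so none could lose a call. The exact tests could also call few features with so few libraries, so keeping the side of the threshold says little about stability.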
